A study of Homo sapiens with 26 samples.

Results

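Ribosome profiling and mRNA-seq reads were examined for genes that encode apolipoproteins and a lipoprotein assembly factor, namely APOA1, APOA2, APOB, APOC1, APOC3, APOE, APOH, APOM and MTTP. The members were chosen by name, and each was matched by its GENCODE symbol to the transcript whose codons were counted, which gave 8 of the 9 genes among 12325 transcripts. APOM had no transcript under its symbol and is not analysed here. The cells were Huh7, a human liver cancer line, treated with PF-06446846, a small molecule that the study examined for the mRNAs whose translation it slows. In study 1, ribosome footprints were sequenced after 10 or 60 min with the compound at 1.5 μM, the compound at 0.3 μM or the vehicle alone (DMSO at 0.5%), with 3 replicates in each of the 6 groups. In study 2, footprints and mRNA were both sequenced after 60 min with the compound at 1.5 μM or the vehicle, with 2 replicates (numbered 4 and 5) per group and assay. A single cell line was used, so all groups share its genetic background.

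Apolipoproteins are the protein part of the particles that carry fats in blood. APOB is the very large structural protein of very low density and low density lipoproteins, and the microsomal triglyceride transfer protein encoded by MTTP loads lipid onto it in the endoplasmic reticulum while it is being made. APOA1 and APOA2 are the main proteins of high density lipoproteins, whereas APOC1, APOC3 and APOE are small proteins that move between particles and affect lipase activity and receptor uptake. APOH, also called beta-2-glycoprotein I, is a plasma protein that binds phospholipids. Liver cells make all of these proteins and secrete them, except the MTTP product, which stays in the endoplasmic reticulum.

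The total of reads on coding sequences (CDS) was 6414227 to 22224137 per footprint library in study 1, with a median of 10682323. It was 8888459 to 13736874 in the footprint libraries and 15227654 to 22036358 in the mRNA libraries of study 2. The 8 members together took 0.761 to 1.17% of footprints (median 0.892%) and 0.402 to 0.466% of mRNA reads (median 0.438%). Footprints per library ranged from 31445 to 157576 for APOB, 9164 to 31595 for APOA1, 3798 to 22123 for APOA2, 4792 to 15213 for APOE and 2793 to 11683 for MTTP. They were fewer for APOH (953 to 4884), APOC1 (397 to 1953) and APOC3 (206 to 819), so the values of these 3 carry more counting error. Of 8 hepatocyte markers, 7 had a transcript, among them AFP at 10817 ± 943 normalized CPM (counts scaled to the library total, SD, n = 3, vehicle at 60 min), and ALB is not analysed here. Of 7 markers of other cell types, 2 had a transcript, PECAM1 at 18.4 ± 8.51 and CD68 at 50.7 ± 9.44 CPM in the same libraries. Since 1055 transcripts had no symbol, a marker without a transcript here need not be unexpressed.

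The 8 coding sequences differ greatly in length. On GRCh38, the CDS of APOB spans chr2:21001730-21043945 on the minus strand, with 29 coding exons and 4564 codons including the stop codon. MTTP has 895 codons in 18 coding exons at chr4:99574910-99622848 (plus strand). APOA1 (268 codons, chr11:116835808-116837387, minus strand) and APOC3 (100 codons, chr11:116830583-116832884, plus strand) lie next to each other on chromosome 11. APOE (318 codons, chr19:44906625-44909250, plus strand) and APOC1 (chr19:44914892-44919204, plus strand) are neighbours on chromosome 19. APOA2 has 101 codons at chr1:161222405-161223401 and APOH has 346 codons at chr17:66212133-66229379, both on the minus strand. The APOC1 transcript counted was ENST00000589781, a short isoform of 30 codons and 2 coding exons that is not the Ensembl canonical isoform, and its second coding exon is read in another frame than in the canonical isoform. Which isoform gave these reads was not tested, so APOC1 values are those of the positions of this short coding sequence, and its end need not be where translation ended. The APOA1 transcript, ENST00000359492, was also not the canonical one.

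Per unit of CDS length, the proteins of high density lipoproteins carried the most footprints of the group. In vehicle at 10 min, APOA2 had 2921 ± 527 CDS reads scaled to CDS length and library total (RPKM, SD, n = 3) and ranked 42 of 12325 transcripts, and APOA1 had 1996 ± 176 RPKM and ranked 105. APOC1 followed at 1049 ± 196 RPKM, APOE at 843 ± 81.9 and APOB at 441 ± 93.7 RPKM. MTTP came next at 211 ± 17.2, APOH at 171 ± 52.5 and APOC3 at 151 ± 7.75 RPKM. The libraries of neighbours in this order overlapped for MTTP and APOH and for APOH and APOC3, so these pairs were not separated. At 60 min the order of the means was the same, from APOA2 (2797 ± 607 RPKM) to APOC3 (119 ± 15.7 RPKM), and the libraries of APOC1 (816 ± 487 RPKM) and APOE (794 ± 59.1 RPKM) overlapped as well. In the vehicle libraries of study 2, APOA1 (1502 ± 148 RPKM, n = 2) was listed above APOA2 (1309 ± 220 RPKM), but their libraries overlapped.

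**Figure D1:**
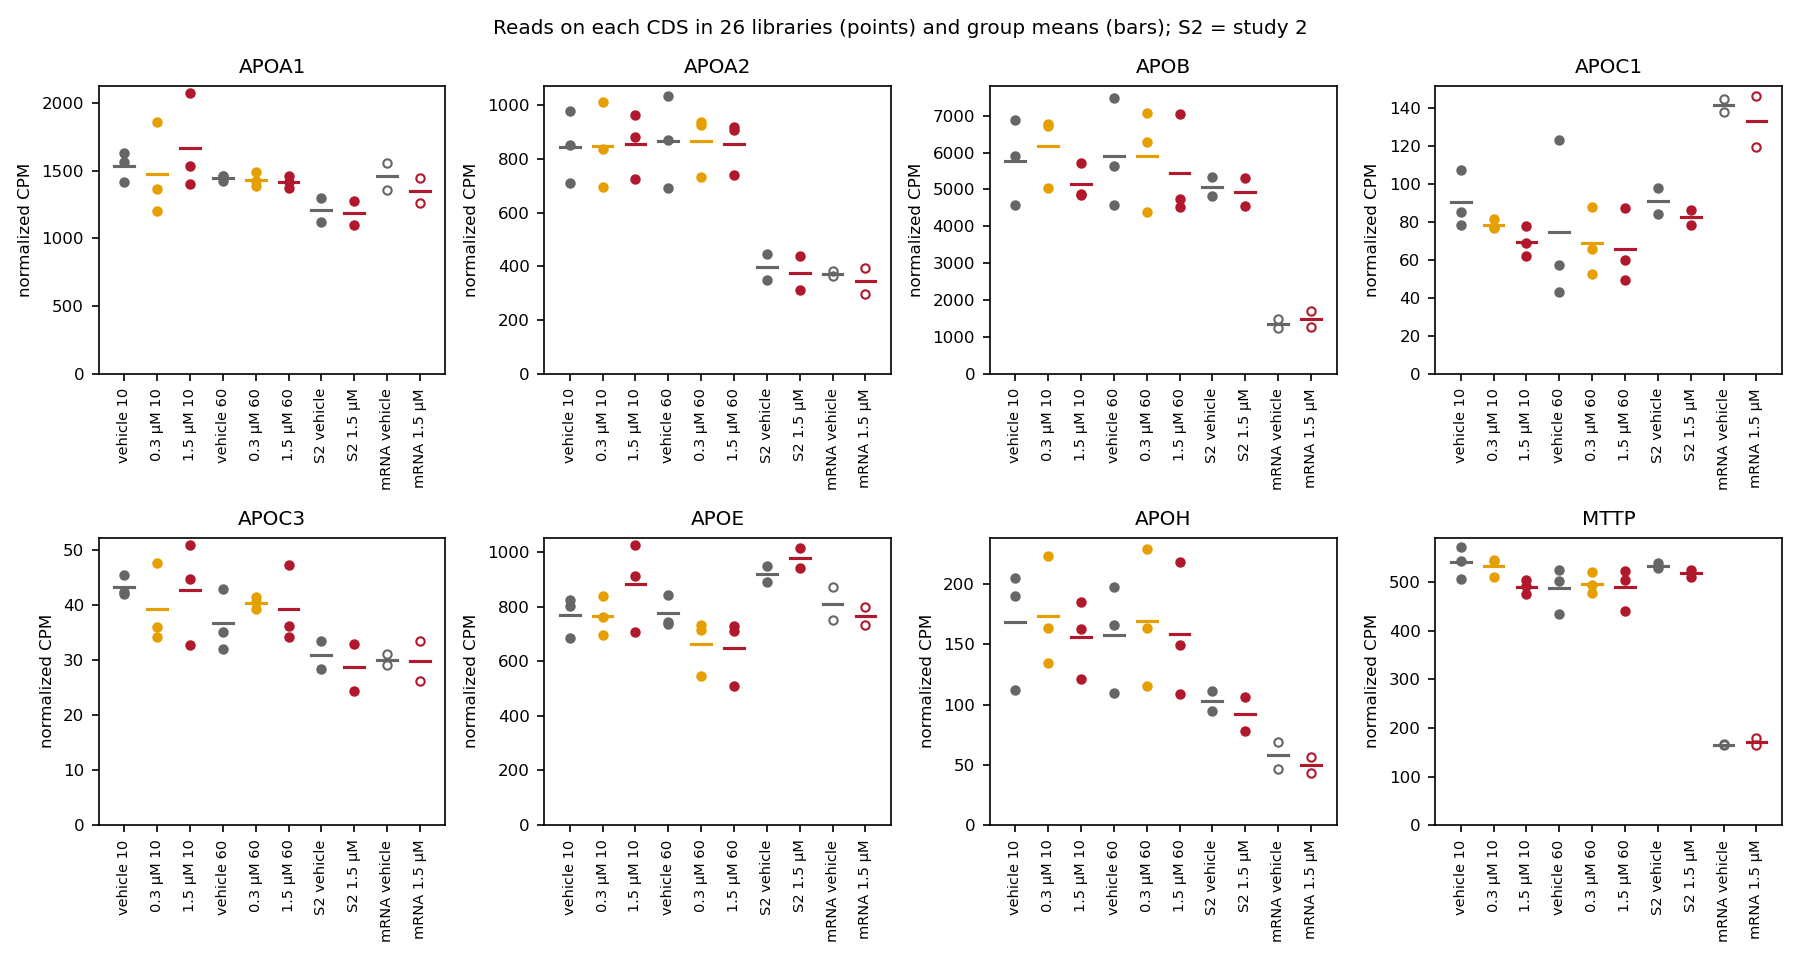
Level of each of the 8 members in normalized CPM (y axis, read counts scaled to the library total after TMM normalization within a study and assay) in all 26 libraries, by group (x axis). Filled points are footprint libraries, open points mRNA libraries, grey is vehicle, orange 0.3 μM and red 1.5 μM PF-06446846; the treated and vehicle points of a time overlap in most panels.

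The order was different in mRNA. In the mRNA libraries from vehicle, APOA1 (1810 ± 198 RPKM, n = 2) and APOC1 (1568 ± 73.7) came first, followed by APOA2 (1225 ± 54.5) and APOE (849 ± 96.7). APOC3 had 100 ± 6.10 RPKM, APOB 98.7 ± 12.1, MTTP 61.4 ± 1.19 and APOH 55.9 ± 15.8 RPKM. APOB and APOC3 overlapped in mRNA, whereas APOB carried more footprints per length than APOC3 in every vehicle library.

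Translation efficiency (TE), taken here as the log2 ratio of footprint RPKM to mRNA RPKM within a replicate number, therefore separated the members. In vehicle, the log2 TE of APOB was 1.72 in replicate 4 and 2.10 in replicate 5, above 97.5% of 9278 transcripts with at least 50 reads per library. MTTP had a log2 TE of 1.70 and 1.68, above 95.9% of transcripts. The assembly factor and the protein it lipidates thus had the highest TE values of the 8 genes. APOH had 1.03 and 0.67 (percentile 79.5), and APOE 0.26 and 0.11 (percentile 57.7). APOA2 had -0.04 and 0.21, and APOC3 -0.01 and 0.08, close to the median of all transcripts at -0.01. The lowest log2 TE values were those of APOA1, -0.26 and -0.28 (percentile 40.2), and APOC1, -0.70 and -0.59 (percentile 27.5). With 1.5 μM PF-06446846, log2 TE was 1.85 and 1.65 for APOB and 1.63 and 1.56 for MTTP. The first part of the APOB CDS, up to its middle codon, held 53.9% of footprints and 48.4% of mRNA reads in vehicle. The footprint libraries were made from ribosome footprints and the mRNA libraries from fragmented poly-A RNA, by the same library protocol, and the part of the different input in these ratios was not tested.

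**Figure D2:**
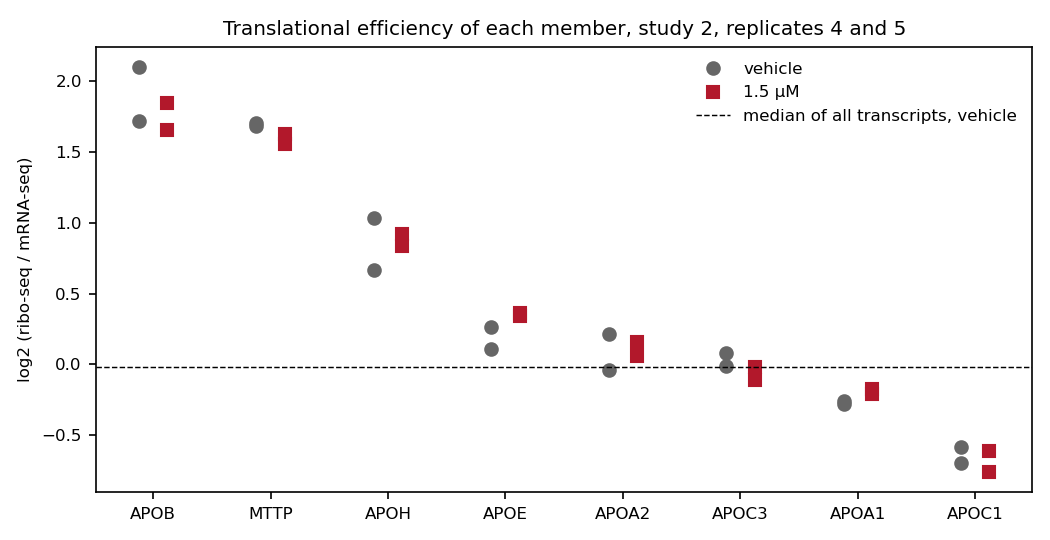
Log2 TE (y axis) of each member (x axis) in study 2, 1 point per replicate number, circles for vehicle and squares for 1.5 μM PF-06446846, with the median of all transcripts in vehicle as a dashed line. APOB and MTTP sit highest, between 1.56 and 2.10, and APOC1 lowest in vehicle, at -0.70 and -0.59.

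Which members carried more or fewer footprints after treatment was tested with edgeR's quasi-likelihood test over all transcripts, with p adjusted by Benjamini-Hochberg and a false discovery rate (FDR) of 0.1. After 10 min with 1.5 μM PF-06446846, 0 of 8 members passed, where 0.851% of all transcripts did (94 of 11045). After 60 min again 0 of 8 members passed, where 0.0726% of all transcripts did (8 of 11021). In study 2, 0 of 8 passed in footprints (background 0.115%), in mRNA (background 0.0%) and in TE (background 0.0339%, or 4 of 11799 transcripts, and 128 without mRNA vehicle replicate 4). With 0.3 μM, 0 of 8 passed at 10 and at 60 min, and vehicle at 60 min against vehicle at 10 min gave 0 of 8 as well, each with a background of 0.0%. At an unadjusted p under 0.05, 1 of 8 members (APOC1) was reached at 10 min with 1.5 μM, where 1953 of 11045 transcripts were, and 0 members in the other 7 of these comparisons. DESeq2 also called 0 members in each of the 8. The comparisons at 1.5 μM and 0.3 μM share the vehicle libraries of their time point. Libraries were not paired by replicate number in these tests, nor in the overlaps given below.

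**Figure D3:**
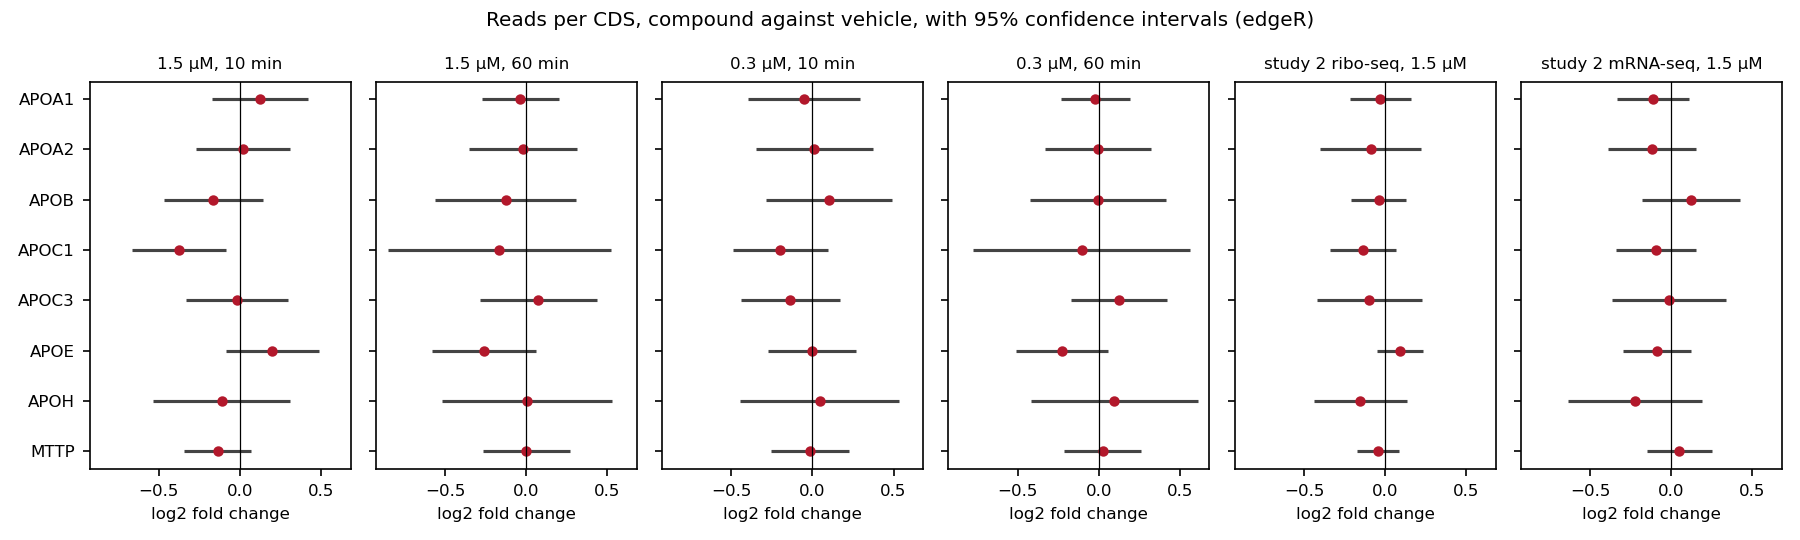
Log2 fold change of footprints or mRNA reads (x axis) with its 95% confidence interval, for each member (y axis) in 6 comparisons of PF-06446846 with vehicle, edgeR. No member passed the FDR of 0.1 in any of them, and the interval of APOC1 at 10 min, -0.67 to -0.08, was the only one that did not include 0.

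For the pair that starts assembly, APOB had 5725, 4877 and 4848 CPM in footprints after 10 min with 1.5 μM and 6879, 5898 and 4566 CPM in vehicle. The groups overlapped, and the log2 fold change was -0.16 (SE 0.14, edgeR adjusted p = 0.561). At 60 min APOB had 7054, 4733 and 4522 CPM with 1.5 μM and 5636, 7497 and 4587 CPM in vehicle, again overlapping, with a log2 fold change of -0.13 (95% CI -0.56 to 0.31). MTTP had 476, 492 and 504 CPM at 10 min with 1.5 μM and 544, 572 and 508 CPM in vehicle. Every treated library of MTTP was below every vehicle library by a narrow margin, where the share of all transcripts so separated is not given here. The log2 fold change of MTTP, -0.14 (SE 0.095, edgeR adjusted p = 0.453), did not pass the test. At 60 min its log2 fold change was 0.00 (95% CI -0.27 to 0.27). In study 2 MTTP had 512 and 525 CPM with 1.5 μM and 529 and 540 CPM in vehicle, with a log2 fold change of -0.04 (95% CI -0.17 to 0.09).

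For the high density lipoprotein genes, APOA1 had 2078, 1533 and 1405 CPM with 1.5 μM at 10 min and 1630, 1565 and 1415 CPM in vehicle. APOA2 had 880, 964 and 725 CPM against 852, 977 and 709 CPM. Both overlapped with vehicle, with log2 fold changes of 0.12 (95% CI -0.17 to 0.42) for APOA1 and 0.02 (95% CI -0.27 to 0.31) for APOA2. At 60 min the log2 fold changes were -0.04 for APOA1 and -0.02 for APOA2. In study 2, APOA2 had 310 and 436 CPM with 1.5 μM against 349 and 447 CPM in vehicle, a log2 fold change of -0.09 (95% CI -0.40 to 0.22). Replicate 5 of the treated group decided that call, since without it APOA2 passed, with a log2 fold change of -0.36 from 1 treated library. In that fit 129 of 11346 transcripts passed, where 13 of 11263 did with all libraries. Replicate 5 was the higher of the pair in both groups, so that leaving it out of 1 group sets replicate 4 against replicates 4 and 5.

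Among the exchangeable apolipoproteins, APOC1 had the lowest fold change at 10 min. Its short isoform had 77.8, 68.7 and 62.0 CPM with 1.5 μM and 78.2, 107 and 85.3 CPM in vehicle. All treated libraries were below all vehicle libraries, with a log2 fold change of -0.38 (SE 0.14, edgeR adjusted p = 0.197). The share of all transcripts separated in this way is not given here. APOC1 passed in 2 alternatives in which many other transcripts passed as well. Without vehicle replicate 3 the edgeR adjusted p was 0.0886 (log2 fold change -0.41), where 1656 of 11130 transcripts passed. With the replicate number as a block the edgeR adjusted p was 0.0583 (log2 fold change -0.37), where 1165 of 11149 passed. Over 12 alternatives the edgeR or DESeq2 adjusted p ranged from 0.0583 to 0.535. At 60 min APOC1 had 87.4, 59.7 and 49.4 CPM with 1.5 μM against 123, 43.1 and 57.4 CPM in vehicle, which overlapped widely. In study 2 its values were 78.5 and 86.1 CPM against 84.0 and 97.7 CPM in footprints, and 120 and 146 CPM against 138 and 145 CPM in mRNA.

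APOE, the ligand by which remnant particles are taken up, had 1028, 915 and 708 CPM at 10 min with 1.5 μM and 684, 803 and 826 CPM in vehicle. At 60 min it had 511, 728 and 710 CPM with 1.5 μM and 745, 738 and 844 CPM in vehicle. The treated libraries were below vehicle at 60 min without overlap, but overlapped at 10 min. How large a share of all transcripts was without overlap in CPM is not given here. The log2 fold changes were 0.20 (SE 0.13) and -0.26 (SE 0.15), and their difference was -0.46 (SE 0.21, edgeR unadjusted p = 0.0462, adjusted p = 0.856). 0 of 8 members passed in this test of the difference, where 0.0% of all transcripts did by edgeR, with 506 of 11167 at an unadjusted p under 0.05 and 1 call by DESeq2. At 0.3 μM and 60 min APOE had 548, 733 and 714 CPM, also below the same vehicle libraries, with a log2 fold change of -0.23. In study 2, at the same time and dose as the 60 min group, APOE had 1017 and 944 CPM with 1.5 μM against 891 and 950 CPM in vehicle, which overlapped, with a log2 fold change of 0.09 (95% CI -0.05 to 0.23).

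APOC3, an inhibitor of triglyceride clearance, had 51.0, 44.9 and 32.7 CPM at 10 min with 1.5 μM and 45.5, 42.5 and 42.1 CPM in vehicle, a log2 fold change of -0.02. APOH had 186, 163 and 121 CPM against 205, 190 and 112 CPM, a log2 fold change of -0.11. Both overlapped with vehicle. In study 2 APOH had 77.8 and 107 CPM with 1.5 μM and 94.6 and 111 CPM in vehicle, and its log2 fold change was -0.15 in footprints and -0.22 in mRNA, neither past the test. As with APOA2, treated replicate 5 decided the footprint call of APOH. Its log2 fold change without that library was -0.40, with the same imbalance of replicate numbers. Over the 8 members the median log2 fold change with 1.5 μM was -0.07 at 10 min and -0.03 at 60 min, beside 0.01 and 0.00 over all transcripts tested.

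The place of footprints along the CDS was then compared, since footprints that collect near the start can leave the total unchanged. The share of a transcript's footprints in codons 2 to 50 was used, which left out the short APOC1 isoform. At 10 min with 1.5 μM, 2 of 7 members had every treated library above every vehicle library, where 25.3% of all transcripts did, so the count was near the background. APOA2 had 50.8, 49.4 and 46.4% of its footprints there with 1.5 μM and 37.2, 35.1 and 40.2% in vehicle. APOC3 had 51.4, 47.6 and 54.6% against 40.3, 31.6 and 42.0%. The differences were 11.4 percentage points for APOA2 and 13.2 for APOC3. Each gave p = 0.1 in an exact two-sided permutation test, the smallest p that 3 against 3 libraries allow. Libraries without overlap always give this p, so it adds nothing to the non-overlap. The median difference over the 7 members was 0.258 percentage points, beside 0.938 over all transcripts.

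At 60 min, 0 of 7 members stood above vehicle without overlap, where 5.98% of all transcripts did. In study 2, 4 of 7 did, where 19.2% of all transcripts did and where 2 against 2 libraries cannot give an exact permutation p below 0.33. APOA2 had 40.3 and 40.2% against 37.9 and 38.2%, MTTP 6.49 and 7.10% against 6.27 and 6.23%, and APOB 1.01 and 0.949% against 0.727 and 0.718%. APOH had 18.6 and 17.5% against 13.6 and 17.4%. APOC3 went the other way than at 10 min, with 32.1 and 34.3% with 1.5 μM and 39 and 38.3% in vehicle, where 13.5% of all transcripts were below vehicle without overlap.

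At the other end of the CDS, the last 5 codons including the stop codon held a smaller share of footprints after 10 min with 1.5 μM in 3 of 8 members, where 26.2% of all transcripts had every treated library below every vehicle library. For APOA1 the share was 1.71, 1.81 and 1.84% with 1.5 μM and 3.52, 5.21 and 3.73% in vehicle. For APOA2 it was 7.86, 11.1 and 12.9% against 13.6, 14.6 and 13.1%. For the last 5 codons of the short APOC1 isoform it was 16.3, 15.8 and 14.8% against 32.6, 37.7 and 19.8%. Each of the 3 members had p = 0.1 (exact permutation, the smallest possible), which follows from the non-overlap and adds nothing to it. In mRNA from vehicle of study 2 the last 5 codons held 1.46% of APOA1 reads, 6.54% of APOA2 reads and 15.9% of APOC1 reads. The treated footprint shares of APOA1 and APOC1 at 10 min in study 1 were near these mRNA values, which come from another study and from 60 min. At 60 min 0 of 8 members were below vehicle without overlap (background 5.98%), and in study 2 APOA2 and APOH were (background 23.8%). With 0.3 μM, 0 of 7 members stood above vehicle in codons 2 to 50 at 10 min (background 3.9%) and at 60 min (background 4.07%), while APOA2 was below vehicle on the last 5 codons at 10 min (background 4.36%) and 0 of 8 members were at 60 min (background 2.83%).

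**Figure D4:**
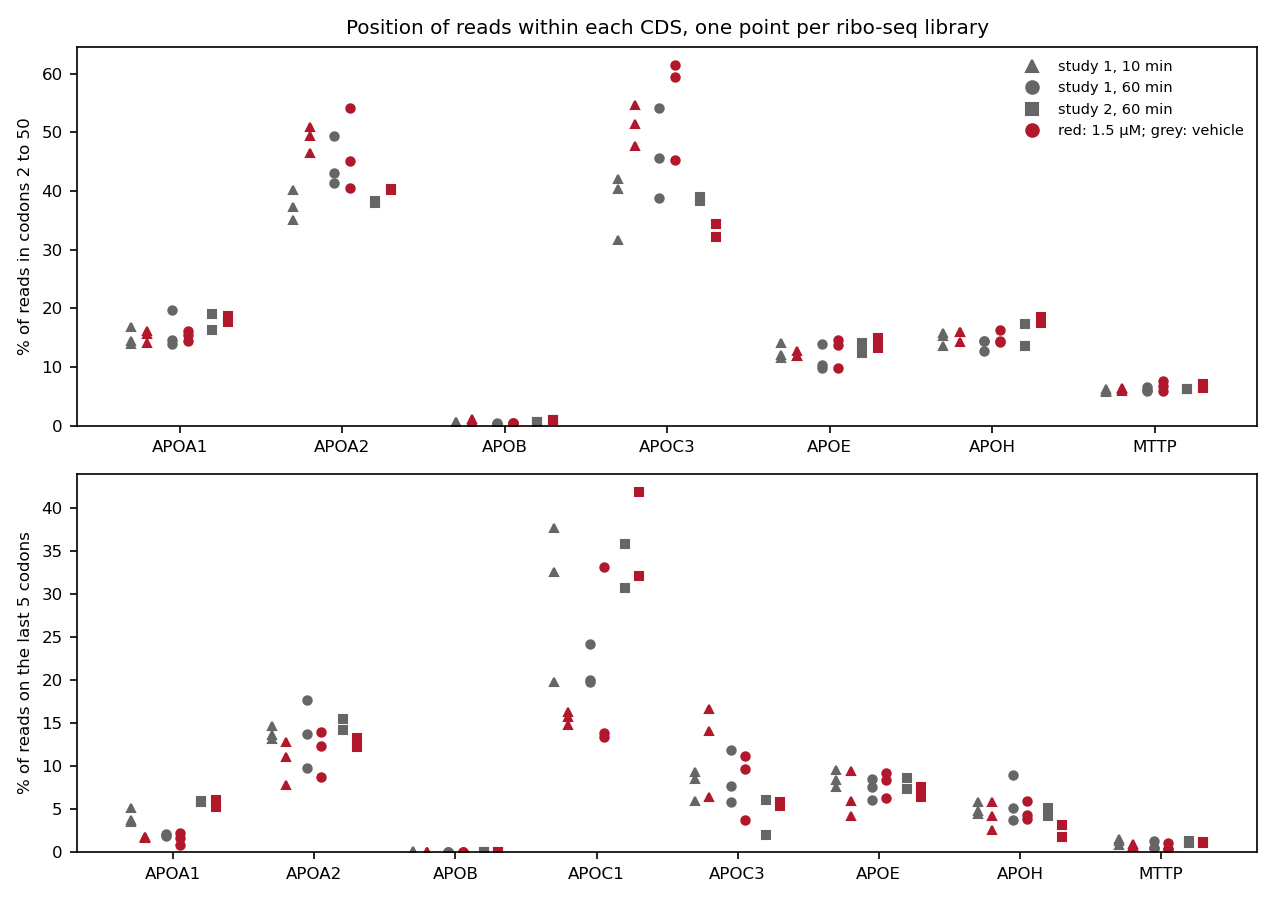
Share of each member's footprints in codons 2 to 50 (top row, % of CDS reads) and on the last 5 codons (bottom row, %), 1 point per library, vehicle in grey and 1.5 μM PF-06446846 in red, at 10 min, at 60 min and in study 2. APOA2 and APOC3 are higher at the start at 10 min without overlap, and APOA1, APOA2 and APOC1 are lower at the end at 10 min.

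The mean codon position of footprints over the CDS was lower in every treated than in every vehicle library for 4 of 8 members at 10 min (APOA2, APOC1, APOC3 and APOH, background 25.7%), 1 of 8 at 60 min (background 8.86%) and 3 of 8 in study 2 (APOA2, APOH and MTTP, background 21.1%). The member at 60 min was MTTP, whose mean position was codon 425.6, 443.1 and 421.5 with 1.5 μM and 445.5, 448.7 and 445.3 in vehicle. Its exact permutation p of 0.1, the smallest possible, follows from the non-overlap and adds nothing to it. In study 2 it was codon 430.3 and 427.5 for MTTP with 1.5 μM against 449.4 and 440.7 in vehicle, and at 10 min the groups overlapped. For APOC3 the mean position was lower at 10 min and higher in study 2 without overlap, where 993 of 7856 transcripts were higher in study 2.

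A further measure of the profile, Dmax, was taken as the largest amount by which the cumulative footprint fraction of treated libraries exceeded that of vehicle libraries at any codon, after pooling replicates. It does not count places where vehicle lies above treated. Dmax was scaled to a Z-score by transcripts of similar read number. A Z-score of 2 or more was reached at 10 min by 1 of 8 members, where 3.48% of all transcripts reached it. This was APOC1, with a Dmax of 0.317 at codon 19 and a Z-score of 4.26. Codon 19 is the last whole codon of its first coding exon. Codons 1 to 19 held 74.1 ± 3.97% of APOC1 footprints with 1.5 μM (SD, n = 3) and 45.1 ± 13.6% in vehicle at 10 min. The same codons held 68.2 ± 3.05% in vehicle at 60 min, 48.8% in vehicle of study 2 and 79.1% of mRNA reads in vehicle, so the vehicle groups also differed among themselves. When the last 15 codons were left out the APOC1 Z-score was 1.06, while APOA2 (2.16, from 1.63) and APOC3 (2.25, from 1.66) then passed 2. For APOC1 this also removed codon 19 itself. The share of all transcripts that passed 2 with the codons left out is not given here. At 60 min 0 of 8 members reached a Z-score of 2 (background 2.67%), with MTTP highest at 1.22. For APOC1 codons 1 to 15 held 52.4% of pooled footprints with 1.5 μM and 63.6% in vehicle, but treated replicate 1 gave 1953 of the treated reads. As means over libraries they held 60.7 ± 14% (44.7 to 70.5%) and 63.2 ± 3.96% (n = 3), which overlapped. In study 2 0 of 8 reached it (background 2.38%), with APOH highest at 1.68.

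Single codons were compared next, by the share of a CDS's footprints at each codon. Codons with a mean of at least 20 reads over the compared libraries were used, and a codon was counted when its share was at least 2 times higher with 1.5 μM in the mean and every treated library was above every vehicle library. The read minimum was taken over treated and vehicle libraries together, so a codon with few vehicle reads could enter through its treated reads. At 10 min 75 of 1418 member codons met this (5.29%), beside 4.81% of all codons. Of these, 52 of 921 were in APOB, 9 of 204 in APOA1, 7 of 92 in APOA2, 4 of 146 in APOE and 3 of 30 in MTTP. Only these 30 of the 895 MTTP codons had enough reads at 10 min. At 60 min 19 of 1693 member codons met it (1.12%), beside 1.15% of all codons, with 14 in APOB, 3 in APOA1 and 2 in MTTP. The member counts were near the background at both times. Both criteria were met at both times by 5 of 1298 codons (background 0.515%), and these 5, which were singled out after their values were seen, are shown with their surroundings. They are printed as the DNA of the coding strand, 5′ to 3′, from GENCODE release 44 transcripts on GRCh38, with the codons concerned in capitals.

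MTTP codons 282 to 291, chr4:99594818-99594847, plus strand, exon 7, with codons 286 and 288 in capitals: tcaaagtacacgGCCattCCCattgtgggg
APOB codons 2288 to 2297, chr2:21009977-21010006, minus strand, exon 26, with codon 2292 in capitals: cacattgaggctATTgatgttagagtgctt
APOB codons 2298 to 2307, chr2:21009947-21009976, minus strand, exon 26, with codon 2302 in capitals: ttagatcaattgGGAactacaatttcattt
APOA1 codons 257 to 266, chr11:116835814-116835843, minus strand, exon 4, with codon 261 in capitals: ctcgaggagtacACTaagaagctcaacacc

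At 10 min the largest of these differences were in MTTP, at a pair of codons with 1 codon between them. At codon 288, MTTP libraries had 81, 108 and 78 footprints with 1.5 μM at 10 min, which was 2.45, 2.24 and 1.62% of the CDS total. Vehicle libraries had 12, 9 and 15 footprints, or 0.123, 0.118 and 0.341%. The mean share was 10.8 times higher with 1.5 μM, and the codon was the most occupied of the 895 codons of MTTP, where it ranked 117 in vehicle. At 60 min the shares were 0.616, 1.64 and 1.55% with 1.5 μM and 0.0358, 0.346 and 0.244% in vehicle, 6.08 times higher, and the codon again ranked 1, against 135 in vehicle. The groups did not overlap at either time, as the choice of the codon required. With at most 15 reads in a vehicle library at 10 min, it passed the read minimum through treated libraries.

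Codon 286 of MTTP behaved alike. Its share was 1.57, 1.70 and 1.22% with 1.5 μM at 10 min and 0.163, 0.0919 and 0.432% in vehicle, 6.54 times higher. At 60 min it was 0.565, 0.990 and 1.62% against 0.322, 0.449 and 0.244%, 3.13 times higher. Treated libraries were above all vehicle libraries of their time at both codons, as the choice required. With at most 19 reads in a vehicle library at 10 min, codon 286 too passed the read minimum through treated libraries. Codon 286 ranked 2 and 3 of the 895 codons with 1.5 μM at 10 and 60 min and 86 and 53 in vehicle.

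Study 2 gave values from libraries that had no part in choosing these codons. At codon 286 of MTTP the share was 0.590 and 0.606% with 1.5 μM and 0.151 and 0.273% in vehicle, 2.82 times higher. At codon 288 it was 0.574 and 0.465% against 0.0687 and 0.0419%, 9.39 times higher, from 36 and 33 footprints against 5 and 2, so that the size of this ratio rests on few vehicle reads. Both codons were higher in every treated library, as were 15.2% of all codons tested in study 2. Of the codons of all transcripts that met both criteria at both times in study 1 and had enough reads in study 2, 212 of 258 were higher in every treated library. 4 of the 5 member codons had a mean of at least 20 reads in study 2, and all 4 were higher in every treated library, while MTTP codon 288 lay below that read minimum. The minimum again covered treated and vehicle libraries together. MTTP codon 286 (13 and 11 vehicle reads) and APOB codon 2292 (14 and 17 vehicle reads) reached it through treated libraries. The 2 mRNA libraries with 1.5 μM had 1 and 0 reads at codon 286 and 3 and 0 at codon 288, and the vehicle mRNA libraries had 0 and 11 at codon 286 and 1 and 0 at codon 288.

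At 0.3 μM the mean MTTP shares were lower than at 1.5 μM, although 1 library at 0.3 μM and 60 min (0.638% at codon 288) was above the lowest at 1.5 μM (0.616%). Codon 288 had 0.396, 0.143 and 0.446% at 10 min and 0.305, 0.353 and 0.638% at 60 min, in the mean 1.69 and 2.07 times the vehicle share. Both groups overlapped with vehicle, but in each of the 3 same-numbered pairs the treated library was the higher at both times, where 3 pairs cannot give an exact permutation p below 0.25. The same vehicle libraries had served to choose codons 286 and 288, so values above them were favoured by the choice. Codon 286 had 0.465, 0.501 and 0.376% at 10 min and 0.555, 0.432 and 0.507% at 60 min, 1.95 and 1.47 times the vehicle share in the mean, overlapping with vehicle and higher in 2 of 3 pairs at each time. The Dmax Z-scores of MTTP were 0.449, 1.22 and 1.22 at 10 min, at 60 min and in study 2, none reaching 2, and the total of MTTP footprints did not pass the test in any comparison.

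**Figure D5:**
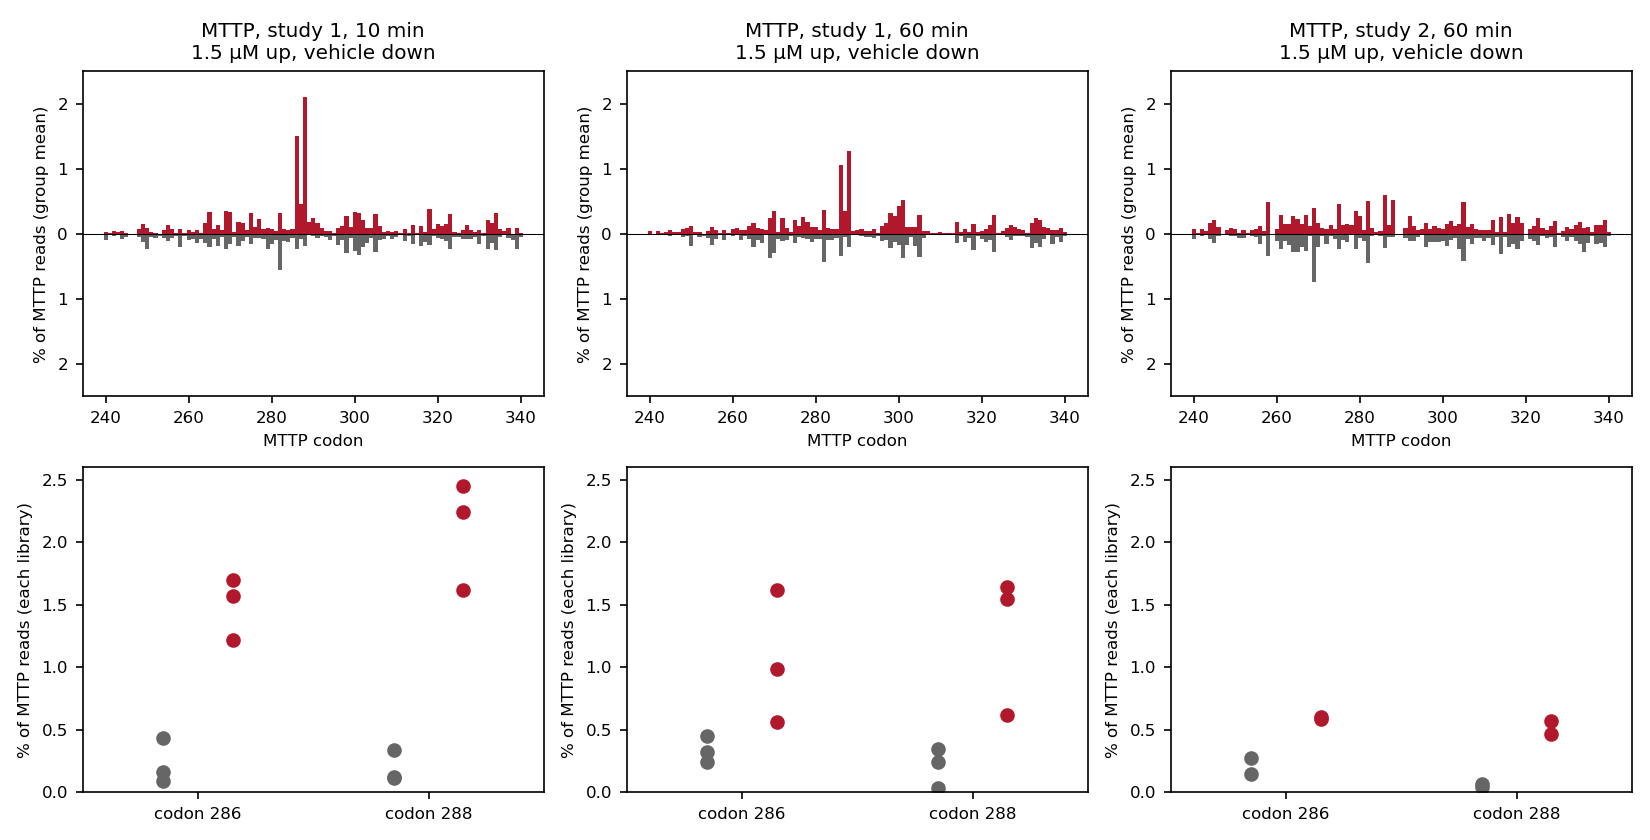
Footprints along MTTP codons 240 to 340 as the mean share of CDS footprints per codon (y axis, %), 1.5 μM PF-06446846 upward and vehicle downward, and the share at codons 286 and 288 in each library in the lower row, red for 1.5 μM and grey for vehicle. At codon 288 the 3 treated libraries at 10 min lie between 1.62 and 2.45% and the vehicle libraries at 0.341% or lower.

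The other 3 codons had smaller differences at 10 min. APOB codon 2292 was 4.59 times higher at 10 min, 3.01 times at 60 min and 2.38 times in study 2. Its vehicle libraries had at most 18 reads at 10 min, so it too passed the read minimum through treated libraries. APOB codon 2302, 10 codons further on in the same exon, was 2.28, 2.74 and 1.91 times higher. APOA1 codon 261, close to the end of its CDS, was 2.40, 3.49 and 1.46 times higher, and 0.457% of mRNA reads with 1.5 μM and 0.336% in vehicle also fell on it. At 0.3 μM and 60 min APOA1 codon 261 had 1.00, 0.659 and 0.560% against 0.295, 0.535 and 0.266% in the same vehicle libraries, 2.03 times higher without overlap. Those vehicle libraries had served to choose the codon, and the share of all codons above vehicle at this dose is not given here. These 5 codons are GCC and CCC in MTTP, ATT and GGA in APOB and ACT in APOA1, and no codon occurred among them more than once.

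Without compound, each coding sequence also had codons with many footprints. For each member the codon with the most footprints in the pooled vehicle libraries of study 1 was taken, leaving out the first 5 and last 15 codons, and its density was expressed relative to the mean of the CDS. APOB codon 4459 had the highest density, 20.2 ± 5.08 times the mean of its CDS (SD, n = 6 vehicle libraries of both times, 15.1 to 27.9), while mRNA reads had 1.78 ± 1.49 times the mean there (n = 4 libraries of both groups). It was the most occupied APOB codon in 13 of the 22 footprint libraries, which include the 6 used for the choice. With 1.5 μM its density was 11.6 ± 3.38 at 10 min and 12.3 ± 1.93 at 60 min (n = 3), but in study 2 it was 19.1 ± 0.173 with 1.5 μM and 17.7 ± 1.36 in vehicle (n = 2). Since the codon was chosen as the highest in vehicle of study 1, a lower density in the treated libraries was favoured by the choice. APOA1 codon 74 had 7.16 ± 2.66 times and APOA2 codon 42 had 5.16 ± 1.29 times the mean of their CDS, each the most occupied in 15 of 22 libraries. In vehicle of study 2, which had no part in choosing these codons, they had 3.28 ± 0.315 and 2.63 ± 0.0866 times the mean (n = 2). These 3 are printed because they led in more libraries than those of the other members longer than the APOC1 isoform, with the occupied codon in capitals and the same source as above.

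APOB codons 4455 to 4464, chr2:21002030-21002059, minus strand: cttaccgatccaGATggaaaagggaaagag
APOA1 codons 70 to 79, chr11:116836375-116836404, minus strand: ctccttgacaacTGGgacagcgtgacctcc
APOA2 codons 38 to 47, chr1:161222962-161222991, minus strand: ttccagaccgtgACTgactatggcaaggac

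In the other members the most occupied codon was codon 62 in APOE (7.07 ± 5.58 times the CDS mean), codon 44 in APOH (6.92 ± 3.92), codon 580 in MTTP (6.36 ± 1.80), codon 36 in APOC3 (5.29 ± 3.00) and codon 15 in APOC1 (4.32 ± 1.58). The spread between vehicle libraries was wide for APOE, from 1.46 to 14.3 times. MTTP codon 580 was the most occupied in 4 of 22 libraries only. Its density in vehicle of study 2 was 1.93 ± 0.462 times the mean (n = 2), below the 3.29 ± 0.882 times of mRNA reads at that codon (n = 4). The vehicle densities of study 2 were also lower than those of study 1 in the mean for APOE (4.79 ± 0.772), APOC3 (2.76 ± 1.51) and APOC1 (3.06 ± 0.292). At APOH codon 44 the density in study 2 was 13.9 ± 0.944 times the mean with 1.5 μM and 9.71 ± 1.70 times in vehicle (n = 2). In mRNA the 8 codons had 0.370 to 3.29 times the mean of their CDS, as means over the 4 libraries.

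Other genes of lipoprotein biology were compared as lists. Of 24 transcripts of genes for assembly and export of lipoproteins, 1 was higher and 0 lower at 10 min with 1.5 μM, against a background of 0.462% higher, with a median log2 fold change of 0.08 beside 0.01 over all transcripts. The single gene was TM6SF2, which encodes a membrane protein needed for lipid loading of very low density lipoproteins. It had 12.5 ± 1.50 CPM with 1.5 μM and 6.93 ± 1.21 CPM in vehicle (SD, n = 3), from 57 to 149 reads per library, and rose by 0.84 on the log2 scale (SE 0.19, edgeR adjusted p = 0.0863). The call rested on each of 5 libraries. Without any 1 of the 3 treated replicates, vehicle replicate 1 or vehicle replicate 2, the edgeR adjusted p was 0.122 to 0.377. Over 13 alternatives the edgeR or DESeq2 adjusted p ranged from 0.00329 to 0.377. At 60 min its log2 fold change was 0.58 (SE 0.22, edgeR adjusted p = 1.0) and in study 2 it was 0.05. No transcript of the lists passed in the other 8 comparisons.

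At 10 min with 1.5 μM, 0 of 6 transcripts of other apolipoprotein genes passed (median log2 fold change -0.01), 0 of 9 of plasma lipoprotein remodelling (median -0.21), 0 of 12 of transcription factors of apolipoprotein genes (median 0.06) and 0 of 7 hepatocyte markers (median 0.00). P4HB, the smaller subunit of the MTTP heterodimer, had 740 ± 96.7 CPM in vehicle at 60 min and a log2 fold change of 0.11 at 10 min with 1.5 μM. SAR1B, a GTPase of the vesicles that carry chylomicrons and other large lipoproteins, had 54.3 ± 4.02 CPM and a log2 fold change of -0.15. CLU (apolipoprotein J) had 1303 ± 163 CPM and 0.06, PLTP, which transfers phospholipid to high density lipoproteins, 152 ± 58.8 CPM and 0.28, and HNF4A, a transcription factor of many of these genes, 228 ± 5.85 CPM and 0.10. None of these 5 genes passed in any of the 9 comparisons.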

How the data were processed

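Huh7 cells were profiled in 22 footprint and 4 mRNA libraries. The authors deposited raw read counts per codon of each CDS. Per the labels and the study's methods, adapters were trimmed with the Fast-X toolkit, rRNA reads were removed, and reads were aligned with Bowtie 1.1.2 to the most abundant isoform of each gene (kallisto 0.42.5, at least 1 TPM, Ensembl 78, GRCh38). Reads matching up to 5 sites were kept, so near-identical copies can share reads, and reads were assigned to the P-site codon by an offset of 14 nt. Cycloheximide was added only at harvest. The labels also name DESeq.

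From these counts, reads were summed per CDS and tested with edgeR 4.0.16 in R 4.3.3 (filterByExpr, TMM, quasi-likelihood test, Benjamini-Hochberg over all transcripts, FDR 0.1), with the compared groups only and no replicate block. TE was tested as the interaction of assay and treatment. All 8 members passed the filter in each comparison. The alternatives were DESeq2 1.42.0, its size factors, no filter, trimmed CDS ends, a replicate block, a single fit of study 1, an FDR of 0.05 and leaving out each library. Symbols came from GENCODE release 44 for 11270 of 12325 transcripts. Shares and Dmax were computed from per-codon counts, and transcripts with at least 100 reads per library gave the background of shares. Dmax needed 10 reads and was divided by the root mean square over bins of 300 transcripts. The scripts were tested on simulated data.

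The study calls its replicates biological, and p-values measure the spread between these libraries. Same-numbered treated and vehicle libraries deviated together at 60 min (r = 0.530, 0.409 and 0.518 for 1.5 μM, and 0.440, 0.434 and 0.559 for 0.3 μM) and at 0.3 μM and 10 min (r = 0.211, 0.155 and 0.544), which counts as pairing from the data, over 9719 transcripts. The intervals and overlaps reported for these comparisons are unpaired, so they include the spread between replicate numbers. Per the methods, the footprints and mRNA of a study 2 replicate came from the same sample. The members and lists were chosen with earlier results of these data known. Values are given for all members, for listed genes that passed the test, and for P4HB, CLU, PLTP, HNF4A and SAR1B. Each member's most occupied codon in vehicle is named, as are the 3 transcripts most correlated with APOB and with APOA1 over the 18 libraries of study 1.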

Additional observations from a re-analysis of the deposited data

How the results depend on the processing

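Of 919 recomputed member log2 fold changes, 801 had the sign of the reported value and 118 the other sign, and none of these 118 had a reported size above 0.22. Only 4 passed the test. With the replicate block, 1 member passed at 10 min with 1.5 μM (APOC1, log2 fold change -0.37, edgeR adjusted p = 0.0583), and at 60 min the blocked log2 fold changes gave 0 members. Replicate numbers at 10 min with 1.5 μM did not all correlate above 0.1 (r = 0.208, 0.240 and 0.0616) and were not taken as pairs, nor were those of vehicle at the 2 times (r = -0.0741, -0.0648 and 0.495) and of study 2 mRNA (r = 0.0882). Those of study 2 footprints were above 0.1 (r = 0.296) but were not taken as pairs either, and 2 replicates per group give only 1 value of r. The block changed no other call of a member. Leaving out 1 library gave 0 to 1 member at 10 min and 0 to 2 in study 2 footprints, where a group of 1 library is assumed to vary like the other. Over all transcripts, the block moved calls from 94 to 1165 at 10 min, from 8 to 51 at 60 min, from 0 to 7 between vehicle times, from 13 to 129 in study 2 footprints and from 4 to 13 in TE. DESeq2 gave 516, 16, 43 and 11 calls at 10 min, at 60 min, between vehicle times and in TE, and 1 each in mRNA and for the difference between times. An FDR of 0.05 gave 29 calls at 10 min and 2 in TE, trimmed ends gave 232, and a single fit of study 1 gave 30 at 10 min and 14 at 60 min. Between vehicle times no filter gave 3 calls and trimmed ends 1. With 1 library left out the calls were 9 (without vehicle replicate 1) to 1656 (without vehicle replicate 3) at 10 min (57 without vehicle replicate 2, 12, 12 and 60 without treated replicates 1, 2 and 3), 0 (without vehicle replicate 2) to 8 at 60 min (5 and 1 without treated replicates 1 and 3, 4 without vehicle replicate 3), 10 to 129 in study 2 footprints (31 and 129 without treated replicates 4 and 5), 0 to 2 in mRNA, 0 to 1 between vehicle times, and 1 to 128 in TE (128 without mRNA vehicle replicate 4, 4 without mRNA vehicle replicate 5 and 1 without any of the other 6). TM6SF2 did not pass at an FDR of 0.05 or in the single fit (edgeR adjusted p = 0.147).

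With codons 2 to 40 in place of 2 to 50, 4 members stood above vehicle at 10 min and 2 in study 2, and leaving out 1 library gave 2 to 4 at 10 min (4 without treated replicate 3), 0 to 1 at 60 min (1 without treated replicate 1 or 3 or vehicle replicate 3) and 4 to 6 in study 2. The shares of all transcripts above vehicle in these settings are not given here, so the member counts cannot be read against a background. Members with a Dmax Z-score of 2 or more were 2 at 10 min without the last 15 codons, and 0 to 1 at 60 min when 1 library was left out (APOC3 at 2.24 without treated replicate 1). Here too the shares of all transcripts in the same settings are not given. Codons counted as higher at 10 min were 13 with a minimum of 50 reads, 158 with a factor of 1.5 and 57 to 162 with 1 library left out (162 without vehicle replicate 3, 116 without vehicle replicate 1, 115 without treated replicate 3), and at 60 min 4, 41 and 26 to 48 (48 without vehicle replicate 2 or 3, 41, 31 and 33 without treated replicates 1, 2 and 3). With fewer libraries, the condition that all treated lie above all vehicle libraries is easier to meet, and the shares of all codons in these settings are not given here. For the 7 members longer than 30 codons, the median level in vehicle at 60 min was 472 RPKM without the first and last 15 codons (421 with them). The median log2 TE was 0.32 without them (0.18 with them). The median share at the end of the CDS was 8.24% for the last 15 codons and 4.55% for the last 2, which are windows of different width. Of 88 recomputed levels, TE values and end shares of single members, 47 moved by more than 1 SD. APOC1 is too short for trimming and has no such value. The cause of the shifts in level and TE was not tested. Ratios that rest on few vehicle reads, as at MTTP codon 288 (down to 1 read), have a size that is poorly fixed, and most codons of APOC3 and APOH were below the minimum of 20 reads. No interval here covers more than the spread between libraries.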

Other observations

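In study 1 the footprint level of several members followed the replicate number rather than the treatment. APOH had a mean of 210 CPM over the 6 groups in replicate 1, 166 CPM in replicate 2 and 117 CPM in replicate 3, with the highest value in replicate 1 and the lowest in replicate 3 in 6 of 6 groups. APOA2 and APOB were also lowest in replicate 3 in 6 of 6 groups, at means of 715 and 4659 CPM. The replicate number took 91.6% of the variance of log2 CPM over the 18 libraries for APOH, 85.2% for APOA2 and 60.4% for APOB. For MTTP it took 0.893%, for APOE 5.45%, and the median over 6706 transcripts with a mean of at least 200 reads was 20.4%. The treatment and time group took 2.62% for APOH, 0.502% for APOA2 and 10.5% for APOB. It took 43.8% for APOE and 39.7% for MTTP, beside a median of 29.3% over the same transcripts. For APOA1, APOC1 and APOC3 the group took 19.8, 19.9 and 17.4%, and the replicate number 32.3, 31.7 and 16.3%. The group has more levels than the replicate number, so it takes more variance even without any effect. Whether a share exceeded that amount was not tested.

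The transcripts whose log2 CPM followed APOB most closely over these 18 libraries were PRKDC (Pearson r = 0.968), CPD (r = 0.953) and IARS1 (r = 0.950). For APOA1 they were SERPINF2 (r = 0.875), TRIM11 (r = 0.868) and DPP9 (r = 0.835). Libraries share replicate number, depth and group, so these values describe the libraries and carry no p.

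Footprints lay unevenly along MTTP. The first of 10 equal parts of its CDS had 1.61 ± 0.0155 times the mean density in vehicle at 60 min and 1.25 times in vehicle of study 2, where mRNA reads had 0.896 times.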
